A study of Sus scrofa with 8 samples.

Results

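Genes by which cells sense bacterial cell wall and pass the signal to NF-kappaB were examined in the pig oviduct 24 h after insemination with X- or Y-bearing spermatozoa. The set held 10 genes chosen by name: TLR4, CD14, LBP, LY96, TLR2, TLR3, MYD88, NFKB1, RELA and NFKBIA. Every probe set whose only gene symbol in the platform annotation was one of these names was taken, which gave 15 of the 23999 probe sets tested and 8 of the 10 genes. TLR3 and RELA had no probe set under their symbols and were not analysed here. The study compared 4 oviducts that held X-spermatozoa with the 4 opposite oviducts, of the same 4 sows, that held Y-spermatozoa. The animals were weaned Landrace × Large White sows with pre-ovulatory follicles, and the spermatozoa were stained, flow sorted and pooled over boars before laparoscopic insemination, so that both groups received sorted spermatozoa and both had their uterine horns closed with staples. No oviduct without spermatozoa was among the samples, and the comparison is between the sperm types alone. The RNA came from cells scraped from the oviduct lining of single oviducts, with 1 Affymetrix Porcine array for each. Oviducts and arrays are called X or Y after the spermatozoa they held.

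Toll-like receptors are membrane proteins that recognise parts of microbes. Lipopolysaccharide, the outer coat of Gram-negative bacteria, is picked up by the serum protein LBP, handed to CD14 and laid into LY96 (also called MD-2), which sits on TLR4. TLR2 binds bacterial lipoproteins, and TLR3 binds double-stranded RNA. The receptors, apart from TLR3, recruit the adaptor MYD88, and a chain of kinases then removes the inhibitor NFKBIA from the NF-kappaB proteins NFKB1 and RELA, which enter the nucleus and switch on inflammatory genes, NFKBIA among them. In the oviduct these genes are known from epithelial cells as well as from leukocytes.

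The values are linear signals, 1 for each probe set and array, scaled by the authors to one trimmed mean per array. The median signal was 38.7 to 41.2 over the 8 arrays. A background level was set for each array at the 95th percentile of 81 probe sets that match no pig gene, and it was 8.5 to 12.3. Differences are given as Y minus X on a log2 scale after quantile normalization, with limma and two-sided p-values, and adjusted p-values are those of Benjamini and Hochberg over all 23999 probe sets. Because both oviducts of a sow were measured, a second fit took the sow as a block. Single members were also put to exact permutation tests, 4 arrays against 4 and, in pairs, by turning the sign within sows, and the smallest two-sided p these allow is 0.0286 for the groups and 0.125 for the pairs. Limma p-values are unadjusted unless called adjusted, and probe sets of a gene are told apart by the end of their identifier. The scraped cells carried the marks of oviduct lining: OVGP1, the oviduct-specific glycoprotein, had mean deposited signals of 7160 ± 1170 in X and 8670 ± 676 in Y oviducts (SD, n = 4 each), and the epithelial adhesion gene EPCAM had 3130 ± 204 and 3330 ± 319 (SD, n = 4 each). After quantile normalization their log2 differences were 0.02 and -0.01 (limma p-values of 0.870 and 0.927). This step sets a value by its rank on the array, which leaves very bright probe sets little room to differ. In sow 1 OVGP1 had deposited signals of 6588.9 (X) and 9314.9 (Y), and a normalized log2 difference of -0.02. Its difference of 0.02 therefore does not show whether the groups were alike in OVGP1.

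Of the 15 probe sets, 8 lay above background on all 8 arrays and stood for TLR4, LY96, TLR2, MYD88 and NFKBIA. One probe set of LBP did so on 7 arrays and one of CD14 on 4. The other 5 did so on at most 1 array, among them the only probe set of NFKB1, at signals of 0.7 to 7.3. NFKB1 lay below background on all 8 arrays, and no difference is given for it. Differences between the groups are given for probe sets above background on at least 3 arrays of each group, a limit chosen after the values were seen, and 9 probe sets of 6 genes met it.

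Between Y and X oviducts, 0 of the 15 probe sets had an adjusted limma p under 0.05, as had 0% of all probe sets, and every adjusted p of the members was 1. At an unadjusted p under 0.05, 1 of the 15 passed, beside 3.56% of all probe sets. That probe set was the dimmer one of LBP, A1_at (limma p of 0.0461, exact p = 0.0857), and it lay below background on all 8 arrays, at 0.4 to 6.7, so no difference is given. With the sow as a block it did not pass (limma p of 0.119). The block fit called 1 of the 15, beside 5.09% of all probe sets, and this was the brighter probe set of LBP.

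**Figure D1:**
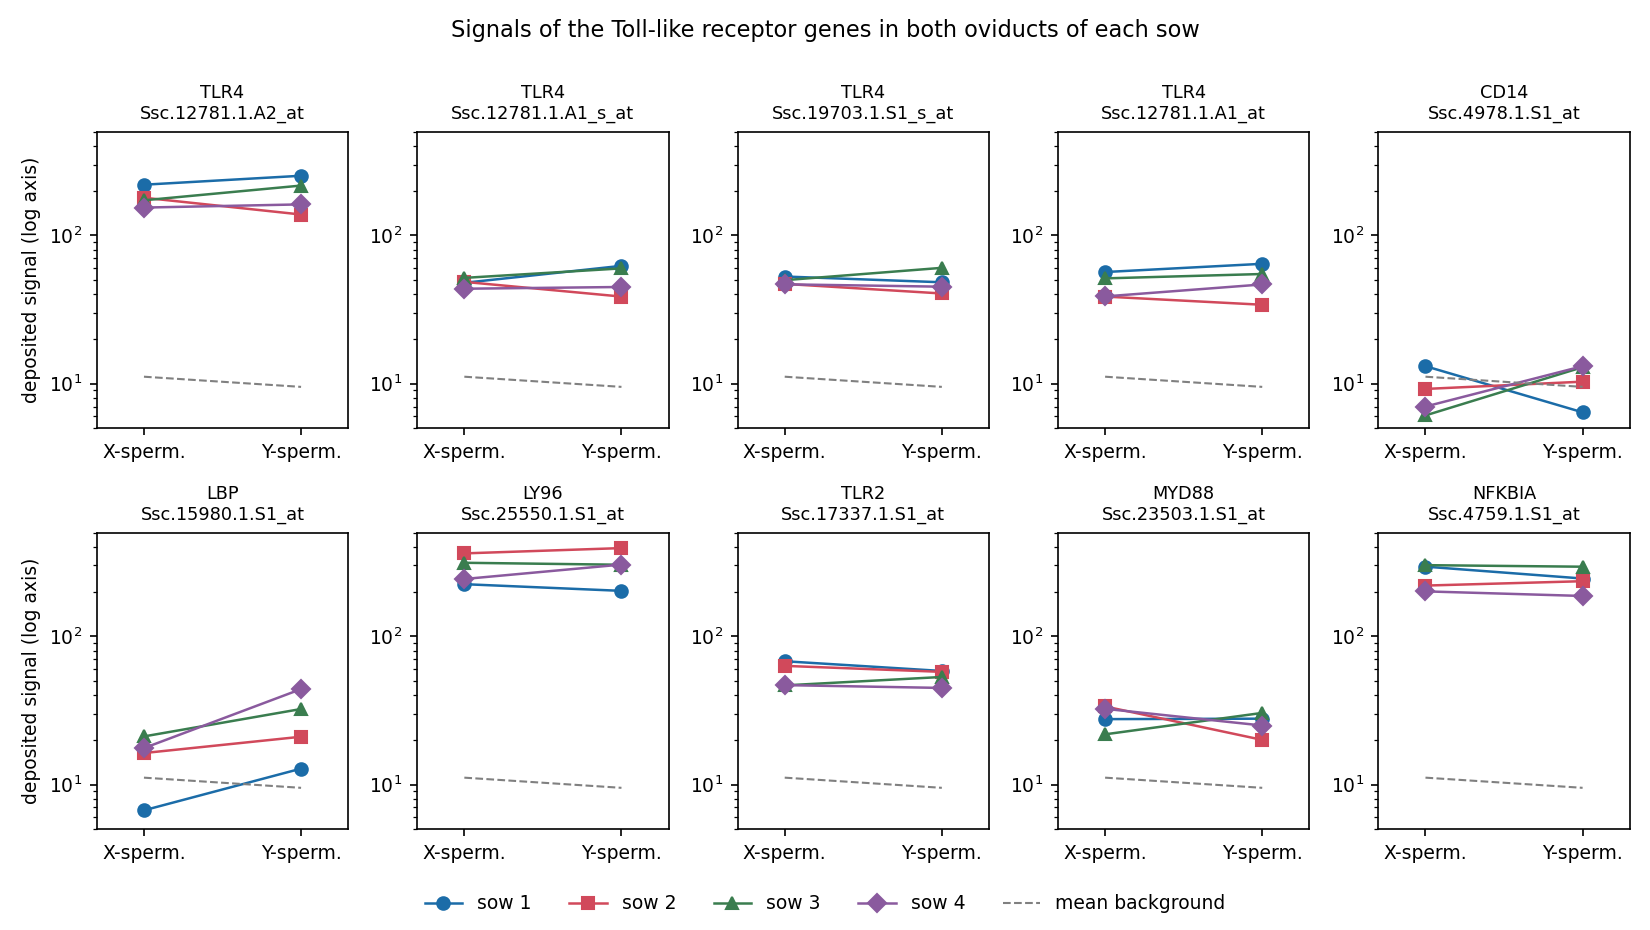
Deposited signal (vertical log axis) of the 10 probe sets above background on at least 4 arrays, in the X oviduct (left) and the Y oviduct (right). Lines join the 2 oviducts of a sow, colours and shapes give the sow, and a dashed line marks the mean background. The 4 lines of LBP all rise to the right, while each other probe set goes up in some sows and down in others.

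LBP, which carries lipopolysaccharide to CD14, was the only member with a higher value in the Y oviduct of every sow. The signals of its S1_at probe set in sows 1 to 4 were 6.7, 16.3, 21.1 and 17.6 in the X oviducts. In the Y oviducts they were 12.8, 21.0, 32.3 and 44.0. The groups overlapped, and sow 1 was low on both sides, with its X array below background. The log2 difference was 0.87 (standard error 0.48, 95% interval -0.24 to 1.98), with a limma p of 0.106. It was 0.71 with signals floored at the background level and 0.47 with a pseudocount of 16, which shrinks differences of dim probe sets. The block fit gave a standard error of 0.19, an interval of 0.38 to 1.37 and a limma p of 0.00712, with an adjusted p of 0.895. The exact tests gave p = 0.171 for the groups and p = 0.125 for the pairs, the latter the smallest possible. By sow the log2 differences were 1.02, 0.44, 0.66 and 1.36. Over the whole array, 6.44% of probe sets were higher on the Y side in every sow, and 1 of the 15 member probe sets was, so the count among the members was near that of the array. Without the X array of sow 1 the log2 difference was 0.51, and without the Y array of sow 1 it was 1.19 and passed (limma p of 0.0353). In the block fit without each sow in turn it stayed at 0.71 to 1.02, with unadjusted limma p-values of 0.0088 to 0.0338.

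TLR4, the receptor of lipopolysaccharide, had 5 probe sets, of which 4 were above background on all arrays. The brightest, A2_at, had signals of 219.2, 179.1, 172.1 and 153.7 in sows 1 to 4 in the X oviducts. In the Y oviducts its signals were 251.9, 138.0, 216.3 and 161.5. The Y arrays spread over a wider range than the X arrays and enclosed it. Y exceeded X by a log2 difference of 0.06 (95% interval -0.44 to 0.55, limma p of 0.787, exact p = 0.75 for the pairs). For the other 3 measured probe sets it was 0.13 (A1_at), 0.11 (A1_s_at) and 0.00 (S1_s_at), with limma p-values of 0.589, 0.540 and 0.998. The widest of the 4 intervals reached from -0.39 to 0.64 on the log2 scale, at A1_at. When the level of the hybridisation controls was added to the fit, all 4 turned negative, at -0.34 to -0.11, and none passed. These controls, RNA added at hybridisation, had mean log2 values of 9.65 to 9.82 on X arrays and 9.82 to 10.06 on Y arrays. The groups hardly overlapped in them, so a fit with both can hardly tell the sperm type from the control level. The part of the controls in the difference was not tested further. The 4 probe sets followed each other over the 8 arrays, with pairwise correlations of 0.65 to 0.90, a description over arrays that share sows. The fifth was at 0.3 to 3.7, below background on all 8 arrays.

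LY96, the partner of TLR4 that binds the lipid, was at 224.3, 361.8, 312.7 and 243.1 in sows 1 to 4 in the X oviducts. In the Y oviducts LY96 was at 202.2, 392.8, 303.3 and 304.1. It was higher on the Y side in 2 sows and lower in 2. This gave a log2 difference of 0.05 (95% interval -0.51 to 0.62, or -0.27 to 0.38 in the block fit), and neither fit passed (exact p = 0.857 for the groups). It was 0.34 (limma p of 0.455) with the hybridisation controls in the fit.

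CD14, the co-receptor that passes lipopolysaccharide to LY96 and TLR4, lay at the background on these arrays. Its brighter probe set had signals of 13.1, 9.2, 6.1 and 7.0 in the X oviducts and of 6.4, 10.3, 12.9 and 13.1 in the Y oviducts. It exceeded background on 1 of the 4 X arrays and on 3 of the 4 Y arrays. Since most X arrays were below background, no difference is given for CD14. The other probe set was above background on 1 array, at 1.4 to 11.6 over all arrays.

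TLR2, the receptor of bacterial lipoproteins, was at 67.8, 63.1, 46.6 and 46.8 in sows 1 to 4 in the X oviducts. In the Y oviducts TLR2 was at 58.3, 57.5, 53.1 and 44.8. TLR2 had a log2 difference of -0.04 (95% interval -0.44 to 0.37, limma p of 0.845, exact p = 0.857). It was lower on the Y side in 3 of 4 sows, and the largest difference within a sow was 0.23 in size on the log2 scale.

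MYD88, the adaptor below the receptors, was measured by S1_at, with signals of 27.6, 33.6, 21.8 and 32.4 in the X oviducts. In the Y oviducts MYD88 was at 27.8, 20.0, 30.4 and 25.0. The sows went apart: Y minus X was 0.05, -0.68, 0.53 and -0.34 in sows 1 to 4 on the log2 scale. The log2 difference over all sows was -0.11 (95% interval -0.55 to 0.33, limma p of 0.580, exact p = 0.543). With the hybridisation controls in the fit it was -0.57 (limma p of 0.0804). A second probe set of MYD88 was at 0.3 to 5.0, below background on all 8 arrays. A further probe set is given the name MYD88 in the study's own annotation but has no symbol in the platform table and is no member here. It was at 3.2 to 8.2, also below background on all 8 arrays, so no difference is given.

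NFKBIA, the inhibitor that holds NF-kappaB in the cytoplasm, was at 294.5, 219.5, 301.4 and 200.6 in sows 1 to 4 in the X oviducts. In the Y oviducts NFKBIA was at 244.9, 234.9, 294.2 and 186.8. Both oviducts of sow 3 were high and both of sow 4 low. The log2 difference was -0.08 (95% interval -0.53 to 0.37), and -0.36 to 0.20 in the block fit, with limma p-values of 0.696 and 0.486 (exact p = 0.686 for the groups). Adding the hybridisation controls to the fit gave 0.06.

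**Figure D2:**
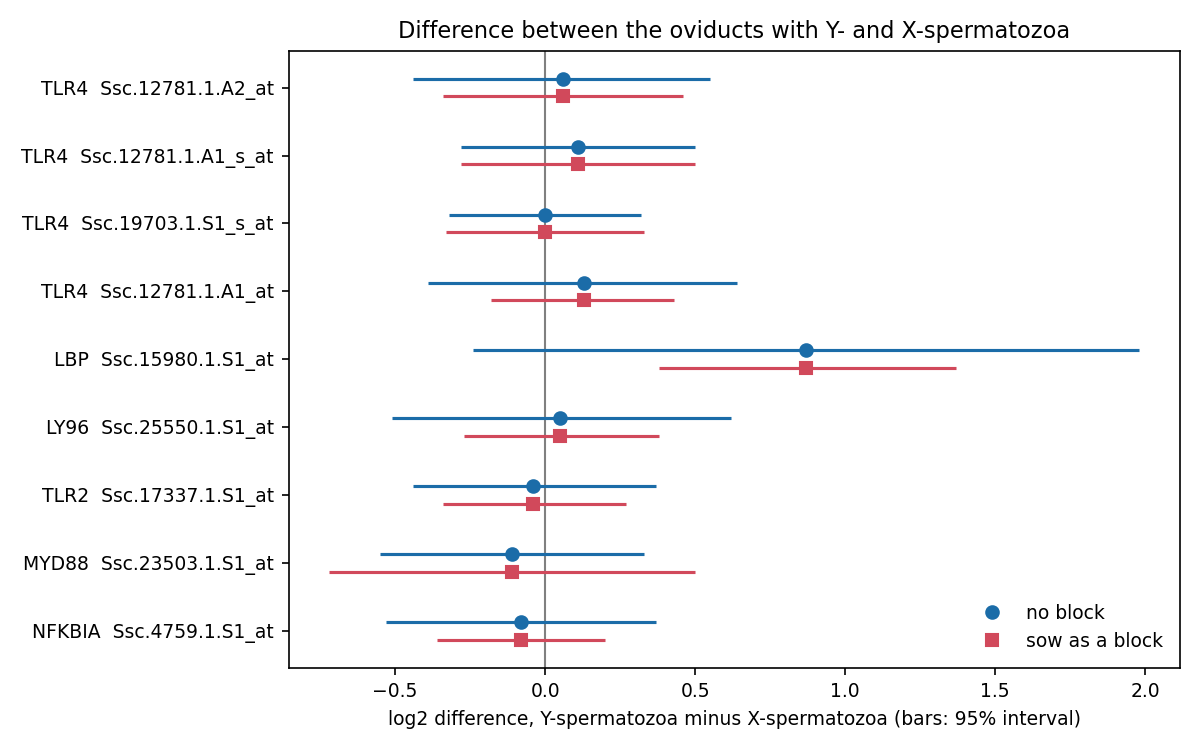
Log2 difference between Y- and X-spermatozoa (horizontal axis) for the 9 probe sets above background on at least 3 arrays of each group, with 95% intervals from limma without a block (blue circles) and with the sow as a block (red squares). All intervals include 0 except that of LBP with the sow as a block, 0.38 to 1.37, whose adjusted p is 0.895.

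The members were also compared between sows. In an F test of the 4 sows in limma, allowing for the sperm type, 5 of the 15 probe sets had an unadjusted p under 0.05, beside 14.2% of all probe sets. None of the 15, and 0 of the 23999, passed after adjustment. The sow cannot be told apart from anything else that the 2 arrays of a sow share. The 5 were LBP (p of 0.00876), MYD88 at its probe set below background (p of 0.0170), LY96 (p of 0.0278), TLR4 at A1_at (p of 0.0321) and NFKBIA (p of 0.0412).

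LY96 was lowest in sow 1 and highest in sow 2, with mean normalized log2 values of 7.73, 8.56, 8.27 and 8.09 in sows 1 to 4. The range between sows was 0.83, while the 2 oviducts of a sow differed by 0.16 on average. At its probe set A1_at TLR4 ran the other way, with mean log2 values of 5.91, 5.21, 5.70 and 5.41, highest in sow 1 and lowest in sow 2. Over the 8 arrays the correlation of LY96 with the 4 measured TLR4 probe sets was -0.70 to -0.35, a description with 2 arrays from each sow. NFKBIA had mean log2 values of 8.07, 7.83, 8.21 and 7.60, high in sows 1 and 3 as TLR4 was, and its correlation with the TLR4 probe sets was 0.46 to 0.62. LBP was lowest in sow 1, with 3.21 against 4.24, 4.68 and 4.79 in the other sows.

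Each of the 4 calls at probe sets above background was lost when some sows were left out. Without sow 1 the F test no longer passed for LBP (p of 0.266), LY96 (p of 0.116) and TLR4 (p of 0.121). Without sow 2 it no longer passed for LY96 (p of 0.124) and TLR4 (p of 0.0626), and without sow 3 or 4 it no longer passed for NFKBIA (limma p-values of 0.127 and 0.192). With signals floored at the background level LBP did not pass (p of 0.0568). The brightest TLR4 probe set, A2_at, had an F test p of 0.135 and mean log2 values of 7.87, 7.31, 7.59 and 7.31. Its F test passed unadjusted with a pseudocount of 16 (p of 0.0481), the brighter probe sets alone (p of 0.0434) or a variance trend (p of 0.0496). After adjustment it passed in none of these settings. A1_s_at and S1_s_at of TLR4 had F test p-values of 0.331 and 0.432. A1_s_at was at 5.77 in both sow 1 and sow 3, and S1_s_at was highest in sow 3, with 5.75 against 5.66 in sow 1.

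**Figure D3:**
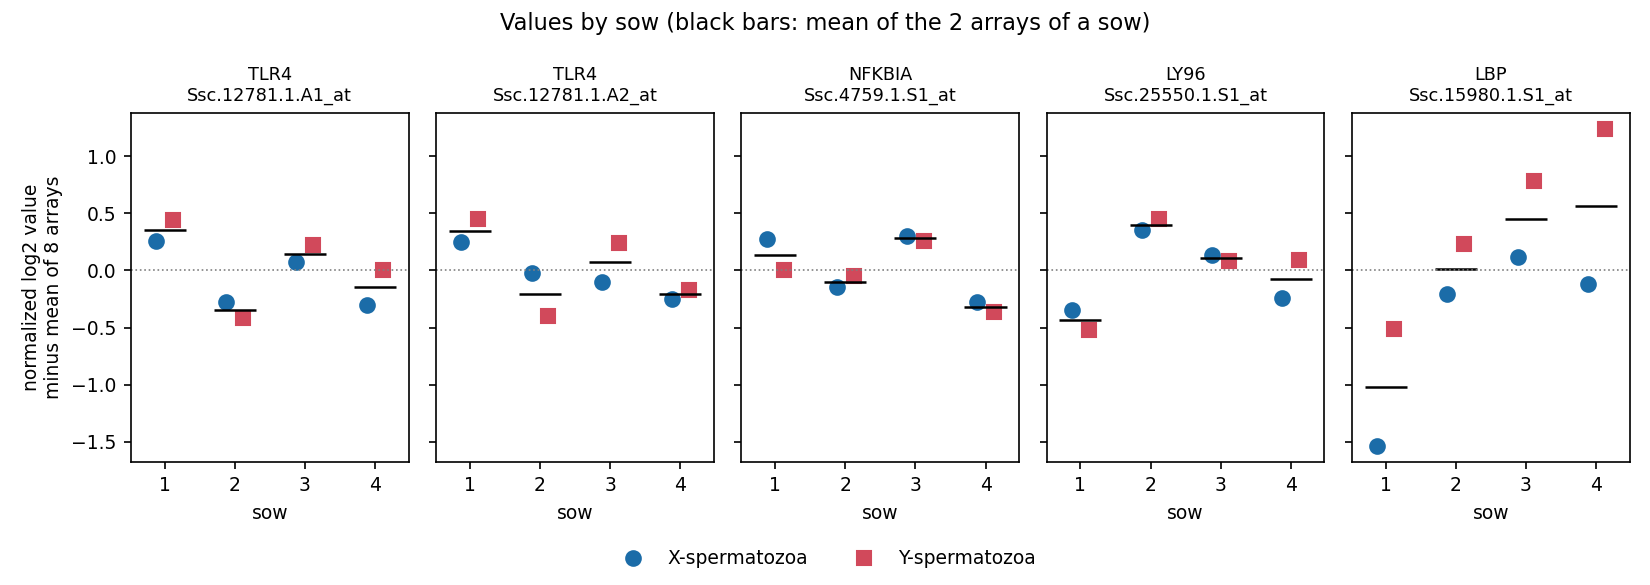
Normalized log2 value minus the mean of the 8 arrays (vertical axis) by sow (horizontal axis) for 2 probe sets of TLR4 and 1 each of NFKBIA, LY96 and LBP. Blue circles are X-spermatozoa, red squares are Y-spermatozoa and black bars are the mean of a sow. LY96 is lowest in sow 1, where the 2 TLR4 probe sets shown are highest, and each red square of LBP lies above the blue circle of its sow.

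Markers of other cells were summed for each sow and group. In bulk tissue, fewer cells of a type and less RNA per cell cannot be told apart. The summed normalized signal of 7 endothelial markers averaged 259, 437, 313 and 341 in sows 1 to 4. That of 9 smooth muscle and fibroblast markers averaged 3390, 8750, 6840 and 7630. Both sums were lowest in sow 1 and highest in sow 2, as LY96 was. No other marker list was both. The macrophage and monocyte sum averaged 799, 950, 652 and 792 in sows 1 to 4, and the lymphocyte sum 80.6, 81.6, 91.1 and 78.7. Not every gene of the 2 lists followed its sum: KDR was lowest in sow 2, and LUM was highest in sow 4. Between sows, 2 of the 7 endothelial and 0 of the 9 smooth muscle and fibroblast markers had an F test p under 0.05, beside 14.2% of all probe sets. Of the epithelial markers 3 of 10 had such a p, and of the macrophage and monocyte markers 2 of 11. Of the neutrophil, lymphocyte and red blood cell markers, 0 of 5, 1 of 8 and 1 of 2 had one. The smooth muscle and fibroblast markers summed to 4070 in the X and 2700 in the Y oviduct of sow 1. In those of sow 3 they summed to 9860 and 3820, and in those of sow 2 to 9450 and 8040. Sow 4 went the other way, with 6290 in the X and 8970 in the Y oviduct. Over all sows they reached 4070 to 9860 in the X oviducts and 2700 to 8970 in the Y oviducts. The 11 macrophage and monocyte markers, led by CTSS and C1QC, summed to 632 to 837 in the X oviducts and 672 to 1100 in the Y oviducts, with 3 of 4 sows higher on the Y side, and none of the 11 had a limma p under 0.05. The 5 neutrophil markers summed to 30.6 to 48.2 and 33.3 to 61.3. Of these, 4 were above background on fewer than 4 arrays, S100A8 on none of the 8, so the sums rest largely on signals near background. The 8 lymphocyte markers summed to 69.3 to 89.2 and 68.1 to 99.4. Of this list PTPRC, which is not particular to lymphocytes among leukocytes, passed the unadjusted threshold (limma p of 0.0171), above background on 2 of 8 arrays. CD4 and CD79B of this list were below background on all 8 arrays. The 10 epithelial markers summed to 16200 to 17600 and 17000 to 18600, and the 2 red blood cell markers, HBB and ALAS2, to 205 to 254 and 205 to 236. The epithelial sums rest largely on OVGP1, which quantile normalization leaves little room to differ, and do not show whether the groups were alike. The part of these cells in the values of LBP, LY96 and TLR4 was not tested.

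The rest of the pathway was read from 5 lists of 103 genes, of which 64 had a probe set under their symbol. Of the 64, 1 gene was higher and 1 lower in the Y oviducts at an unadjusted limma p under 0.05, 3.12% against the 3.56% of the array, and none passed after adjustment. With the sow as a block 4 of the 64 passed, 6.25% beside 5.09%. The median log2 difference of the 64 was 0.02, against 0.00 for all probe sets.

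The gene that was higher was TRAFD1, a zinc finger protein that restrains signalling from TLR4. Its signals in sows 1 to 4 were 83.9, 84.8, 90.3 and 72.1 in the X oviducts and 136.8, 93.1, 109.4 and 126.9 in the Y oviducts. Every Y array lay above every X array. TRAFD1 had a log2 difference of 0.49 (95% interval 0.15 to 0.83, limma p of 0.0111, or 0.0294 in the block fit), and an exact p = 0.0286 for the groups, the smallest possible. With the hybridisation controls in the fit it was 0.22 and did not pass (limma p of 0.399), but that fit can hardly tell the controls from the sperm type. In the block fit it did not pass without sow 1, 3 or 4 (limma p-values of 0.0991, 0.0552 and 0.0916). The other 12 measured genes among the brakes did not pass. CYLD, a deubiquitinase, had a log2 difference of 0.33 (standard error 0.18), and PTPN6, a phosphatase, was above background on 1 array.

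Of 10 further receptors and their helpers, 1 was lower. This was IL18R1, the interleukin 18 receptor, which shares the signalling domain of the Toll-like receptors. It was at 9.38 ± 2.40 in X and 5.45 ± 2.29 in Y oviducts (SD, n = 4 each; limma p of 0.0389, or 0.104 in the block fit), above background on 1 of 8 arrays, so no fold is given. CD180, a TLR4 relative of B cells, and UNC93B1, which guides the receptors of endosomes, were below background on all 8 arrays. CD180 passed in the block fit (limma p of 0.0499).

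None of 16 adaptors, kinases and ubiquitin ligases passed in limma without a block. TANK, which binds TRAF proteins, was at 214 ± 48.2 in X and 168 ± 32.8 in Y oviducts (SD, n = 4 each). It was lower in 4 of 4 sows, as were 1611 of all 23999 probe sets. Its log2 difference was -0.34 (95% interval -0.79 to 0.12), with a limma p of 0.126, or 0.0305 in the block fit. The kinase TBK1 had a log2 difference of 0.09 (standard error 0.10), and BTK was below background on all 8 arrays. None of 5 NF-kappaB, IkappaB and IRF genes passed: the log2 difference was 0.25 for IRF3, 0.21 for IRF7 and 0.03 for NFKBIB, with standard errors of 0.18, 0.28 and 0.10. By sow the log2 difference of IRF7 was 1.00, -0.14, -0.02 and 0.01 in sows 1 to 4.

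None of 20 target genes of NF-kappaB passed in limma without a block, and their median log2 difference was 0.04. IL1B, the cytokine interleukin 1 beta, was at 46.3 ± 9.03 in X and 38.5 ± 6.62 in Y oviducts (SD, n = 4 each). It was lower in 4 of 4 sows, as were 1611 of all 23999 probe sets, with a log2 difference of -0.23 (standard error 0.18). CSF3, which drives neutrophil production, was at 17.1 ± 5.36 and 10.4 ± 2.35 (SD, n = 4 each), with 5 of 8 arrays above background and a limma p of 0.0723. The chemokine CCL3L1 was below background on all 8 arrays and passed in the block fit alone (limma p of 0.0239).

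**Figure D4:**
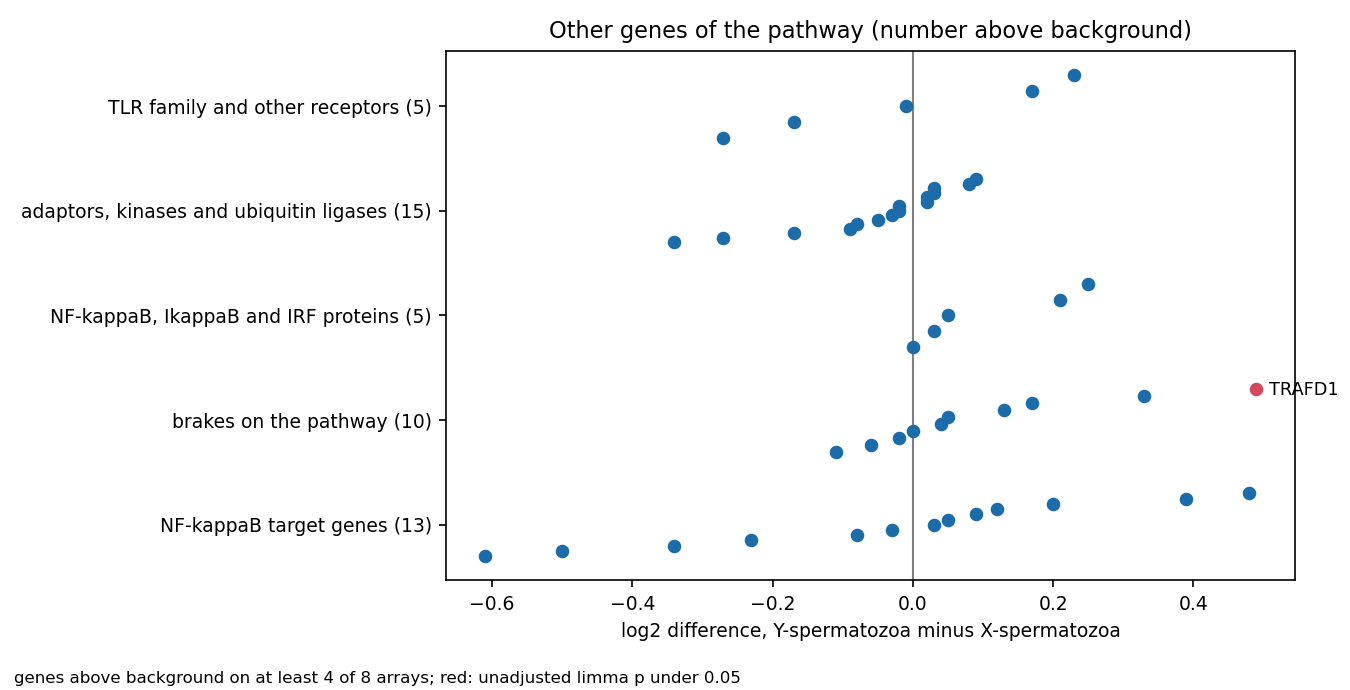
Log2 difference between Y- and X-spermatozoa (horizontal axis) of the 48 pathway genes above background on at least 4 arrays, in 5 lists with the number of genes in brackets. Each point is 1 gene and red marks an unadjusted limma p under 0.05. TRAFD1, at 0.49, is the only gene in red, and the points lie on both sides of 0.

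Between sows, 6 of the 64 pathway genes had an unadjusted p under 0.05, 9.38% beside the 14.2% of the array. Chosen after their values were seen, they were TANK, HSP90B1, a chaperone that Toll-like receptors need to fold, and the target genes IL1A, IL6, CCL4 and ICAM1. ICAM1, an adhesion protein for leukocytes, had signals of 90.6, 124.8, 179.3 and 97.0 in sows 1 to 4 in the X oviducts and 97.1, 137.3, 202.1 and 126.1 in the Y oviducts (limma F test, p of 0.00516). Both oviducts of sow 3 were high, as for NFKBIA, but the genes went apart in sow 1. There ICAM1 was lowest, with a mean log2 value of 6.55, and NFKBIA was not, with 8.07. Of the other 3 target genes, IL1A was lowest in sow 3 (3.10), and IL6 and CCL4 were highest in sow 2 (3.77 and 5.25).

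Among 5939 brighter probe sets with 1 gene symbol, those most like TLR4 over the 8 arrays were CRYBG1, RETREG1 and CMTM7, with correlations of 0.98, 0.96 and 0.96. Those most like MYD88 were LOC100513397, SEC63 and POU2F1 (0.97, 0.95 and 0.94), and those most like CD14, at its level near background, were FAM118B, C14H12orf49 and LOC100158040 (0.96, 0.94 and 0.91). The arrays share sows, and these are the highest of many correlations over 8 points.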

How the data were processed

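Signals of 24123 probe sets on 8 Affymetrix Porcine arrays were used as deposited by the authors, linear intensities made with Microarray Suite (MAS5, version 5.1 in the submitters' processing notes) and scaled so that the trimmed mean, with 2% cut at each end, was 100 on every array. The study's methods describe RMA values and limma, and probe-level values and detection calls were not used here. The signals were quantile normalized over all probe sets, raised to at least 1 and put on a log2 scale, after which the 124 AFFX controls were dropped. limma 3.58.1 (R 4.3.3; lmFit and eBayes) compared the group means over 23999 probe sets, and the fits were tested on simulated data. Python 3.11.15 and matplotlib 3.10.9 made the plots. The background was taken over 64 reporter and 17 tag probe sets. Precision is limited by how many arrays there are.

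The labels number the arrays by replicate, and each sow gave an X and a Y oviduct, so the numbers pair the arrays. As a check, the deviations of paired arrays from their group means had correlations of 0.13 to 0.19. Symbols come from the platform annotation, in which 10069 of the probe sets have 1 symbol and 198 have several. The brightest probe set stood for each pathway or marker gene. Named were all members, the pathway genes past an unadjusted p of 0.05 (up to 6 a list, at least the 3 with the smallest p), and marker genes that lead a list or passed. The members and lists were chosen with earlier results of these data known. MYD88 and IRF7 are also genes that the study listed from these arrays as altered, under Toll-like receptor signalling. Neither passed the unadjusted limma threshold here, where the deposited signals were used and not RMA values. The study also measured IRF7 by qPCR and reported a difference at a p under 0.05 in a paired t-test. It names another probe set for IRF7 than the brightest one, which was read here. Alternatives were a fixed or random sow block, the deposited scaling, centring on the median, a pseudocount of 16, the brighter probe sets alone, a variance trend, a term for the hybridisation controls, and each array or sow left out in turn. A floor at the mean background of 10.3 was chosen after seeing the data. The exact permutation tests were likewise added after the values were seen.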

Additional observations from a re-analysis of the deposited data

Results flagged for a closer look

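The summed signal of the 7 endothelial markers was 398 on the X-spermatozoa array of sow 2, against 277 to 294 on the other 3 X-spermatozoa arrays, a gap of 0.830 of the whole range of that group on the log2 scale, just past the limit for 4 arrays. It was the only value that stood apart from its group among 52 groups of 4 arrays, where chance gives about 1 in 20.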

How the results depend on the processing

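The paired analysis (the sow as a replicate block) called 1 member probe set, as did the fit without it, but a different one: S1_at of LBP in place of its A1_at. With the sow as a random block 2 member probe sets had an unadjusted p under 0.05, and 0 had with the deposited scaling, median centring, a pseudocount of 16, the brighter probe sets alone or a floor at background. Leaving out 1 array gave 0 to 2, leaving out 1 sow in the block fit 1 to 3, and 0 passed after adjustment in either. Between sows 3 passed with the floor at background and 1 to 4 with a sow left out.

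Adding the hybridisation controls turned the log2 difference to -0.34 (TLR4 A2_at), -0.29 (TLR4 A1_s_at), -0.11 (TLR4 S1_s_at), -0.14 (TLR4 A1_at), 0.06 (NFKBIA), -0.01 (NFKBIB) and -0.26 (IRF7), and the deposited scaling turned TLR4 S1_s_at to -0.03. With 1 array left out the log2 differences ran over 0, from -0.08 to 0.20 (TLR4 A2_at), -0.11 to 0.07 (TLR4 S1_s_at), -0.00 to 0.29 (TLR4 A1_at), -0.09 to 0.23 (LY96), -0.13 to 0.07 (TLR2), -0.18 to 0.03 (NFKBIA), -0.01 to 0.08 (NFKBIB) and -0.07 to 0.35 (IRF7). In the block fit with 1 sow left out they ran from -0.03 to 0.20 (TLR4 A2_at), -0.11 to 0.06 (TLR4 S1_s_at), -0.04 to 0.13 (LY96), -0.12 to 0.03 (TLR2), -0.32 to 0.08 (MYD88) and -0.05 to 0.33 (IRF7). The cause was not tested.

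Among the pathway lists the receptors had 2 calls with the deposited scaling or median centring and 0 with the pseudocount, the brighter probe sets, a variance trend or the floor. The brakes had 2 with the hybridisation controls, SOCS1 and PTPN6, and TRAFD1 was not among them. The adaptors had 1 in the block fit, and the target genes had 1 in the fixed or random block, with the deposited scaling or with the hybridisation controls. With 1 array or sow left out, with or without the block, the counts were 0 to 2 for the receptors, brakes and target genes and 0 to 1 for the adaptors and the NF-kappaB and IRF genes. Genes at background, such as CD14, NFKB1 and IL18R1, are beyond what these signals can compare between the groups.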
